A study of Rattus norvegicus with 6 samples.

Results

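The genes described here are 8 classical members of the p53 response and the cell division cycle: Mdm2, Ccng1, Cdkn1a, Gadd45a, Bax, Ccnd1, Pcna and Ccnb1. They were followed in rat liver through every probe set (the group of short array probes that together report 1 transcript) whose single gene symbol in the platform's annotation is one of them. That gave 7 of the 8 genes, among 4736 named genes on the array, and 20 of its 8740 probe sets. The 3 probe sets that carry the symbol Bax, the pore-forming cell death protein, also carry a second symbol, so Bax is not analysed here. Of the 20 probe sets, 16 were bright enough to be tested and 4 were not.

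The study set 2 diets side by side in male Sprague Dawley rats, an outbred laboratory stock, all fed by total enteral nutrition, in which liquid food is delivered straight into the gut. The 3 NASH samples, named for nonalcoholic steatohepatitis, came from rats given 70% corn oil at 220 kcal daily per kg of metabolic body mass for 3 weeks, and the 3 Control samples from rats given 5% corn oil at 187 kcal for the same time. Fat share and energy supply changed together and cannot be told apart, and the age of the animals is not given in the sources used here. No label ties a sample to its own animal, so the limma p-values below measure the spread between samples, which may be technical.

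The p53 protein is a transcription factor that accumulates when DNA is damaged or cells are stressed. It induces Cdkn1a, which blocks cyclin-dependent kinases, Gadd45a, which takes part in growth arrest and DNA repair, and Ccng1, and it also induces Mdm2, the ubiquitin ligase that sends p53 itself to degradation. Division then runs through cyclin D1 (Ccnd1) in G1, PCNA, the sliding clamp of the replication fork, in S phase, and cyclin B1 (Ccnb1) at entry into mitosis. Adult hepatocytes are mostly quiescent and re-enter this cycle after injury or loss of tissue. In whole liver, fewer cells of a type and less RNA per cell cannot be told apart.

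No member differed between the diets past the threshold, a Benjamini-Hochberg adjusted p under 0.05 by limma over all 5244 tested probe sets. Of the 16 member probe sets 0 were called, where 0.133% of all tested probe sets were, and 0 had an unadjusted p under 0.05, where 7.86% of all did. Adjusted p-values of the members lay between 0.619 and 0.998. Differences (NASH minus Control on the log2 scale of the normalized signal plus an offset of 2.21) ran from −0.71 for a Gadd45a probe set to 0.78 for Ccng1. Positive differences were found for 12 of the 16 and negative ones for 4, with a median of 0.26, while 47.1% of all tested probe sets were positive with a median of −0.02. Several probe sets report the same transcript, so these counts are a description only. The 95% confidence interval lay within 1 log2 unit of no difference for 8 of the 16, and the other 8 left room for larger differences.

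**Figure D1:**
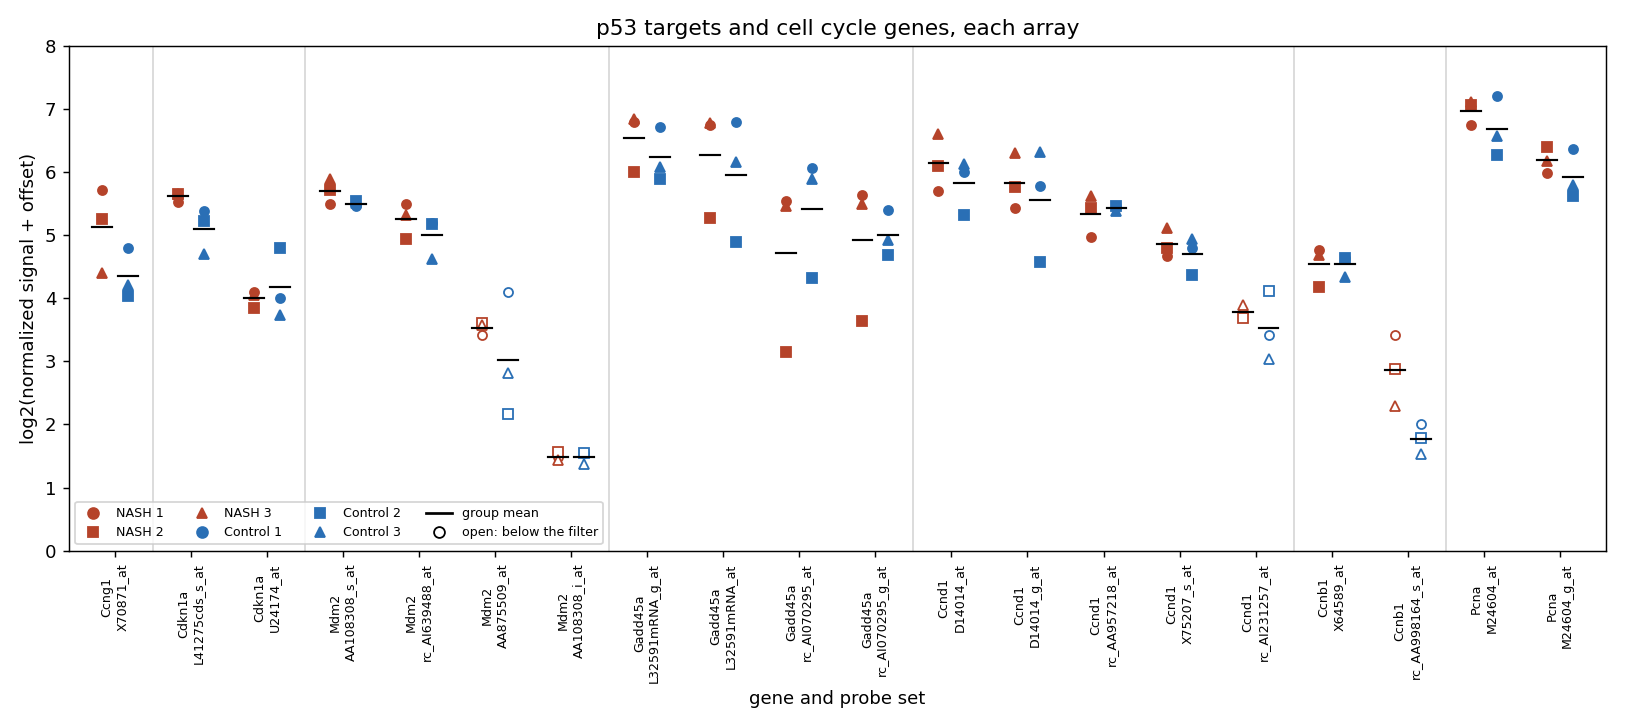
Level of each member probe set on each array, as log2 of the normalized signal plus the offset, with NASH in red left of Control in blue, black bars for group means, and open symbols for the 4 probe sets below the intensity filter. The groups lie apart for 2 of the 20, a Cdkn1a and a dim Ccnb1 probe set, where 13% of all 8740 probe sets lie apart in either direction. In the deposited signals both overlap. The 4 Gadd45a probe sets are lowest in NASH 2 and Control 2 within their groups.

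Array-wide, 15 pairwise correlations over log2 values lay between 0.93 and 0.97. Deposited mean signals, trimmed by 2%, ran from 73.6 to 117 over the 6 arrays, and so signals were quantile normalized. Of 15 hepatocyte marker genes 14 were on the array and all 14 were bright enough to be tested. Their summed normalized signals were 39110 to 40986 in NASH and 40410 to 42571 in Control. The brightest genes dominate this sum, and quantile normalization gives the top ranks the same values on every array. Near-equal sums therefore cannot show equal hepatocyte content. NASH 2 carried fat and muscle transcripts. The 7 measured adipose and brown fat markers summed to 3579 there against 442 to 561 on the other 5 arrays. The 8 measured skeletal muscle markers summed to 2374 there against 126 to 219, with Acta1 (1488) and Ckm (491) the largest. Not all 8 followed: Myh4 was lowest in NASH 2 (7.62, others 11.8 to 24.2). Myh1 lay inside the range of the other arrays (90.4, others 64.4 to 113), and the rest were highest in NASH 2. The 11 measured genes listed as lymphocyte markers summed to 229 to 373 in NASH and 168 to 194 in Control, without overlap. The highest sum was that of NASH 2. Of these genes 5 were below the filter (Cd3d, Cd3g, Cd2, Cd8a and Cd8b). The 6 tested (Cd4, Cd48, Coro1a, Klrk1, Cd79b and Ptprc) were all positive (median 0.38) and 0 were called. By limma 1 of the 6, Coro1a, had an unadjusted p under 0.05, where 7.86% of all tested probe sets did. The groups did not overlap for 2, Cd4 and Ptprc, where 14.3% of all tested probe sets did not. Macrophage and stellate cell sums overlapped between the diets. The 5 measured macrophage and monocyte markers came to 633 to 1058 in NASH and 720 to 967 in Control. The 7 measured stellate cell markers came to 339 to 890 in NASH and 440 to 651 in Control. Of the 14 hepatocyte markers, 4 were lower in NASH at an unadjusted p under 0.05 by limma. Of all tested probe sets, 7.86% had such a p in either direction. None of the 14 was called, and their median difference was −0.08. The groups did not overlap for 4 of the 14, where 14.3% of all tested probe sets did not. The part of these marker levels in the members' values was not tested. Control 2 stood apart in some clock genes. The output factor Dbp, below the filter, had a normalized signal of 135 there (others 4.30 to 9.10), and Bmal1 1.90 (others 33.5 to 72.3). Also highest in Control 2 were Nr1d1 (111, others 37.2 to 49.4), Tef (113, others 34.3 to 58.6) and Nr1d2 (47.0, others 6.73 to 21.6). Per2 did not set Control 2 apart, at 37.9 against 43.2 in Control 1. Hlf was lowest in Control 2, at 16.9 against 19.3 in Control 3. The tested clock genes with the smallest p were Per2 (−0.89 ± 0.34, difference ± standard error), Hlf (0.57 ± 0.26) and Bmal1 (0.94 ± 1.02). Their limma adjusted p-values were 0.582, 0.619 and 0.836. The instrument's wash record was filled for NASH 1, NASH 2, Control 1 and Control 3 and blank for NASH 3 and Control 2, and values within each kind of record are given below.

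Mdm2, the negative regulator of p53, had close means in both diets by its brightest probe set. AA108308_s_at had normalized signals of 42.7, 50.6 and 56.9 in NASH 1 to 3, and 41.8, 44.3 and 43.2 in Control 1 to 3. The NASH values reached further up, and NASH 1 lay inside the Control range. The difference was 0.20 ± 0.19 (standard error, n = 3 per group), with a 95% confidence interval of −0.25 to 0.64 and a limma adjusted p of 0.813. The interval covers 1.56-fold higher in NASH at its upper end. A second probe set, rc_AI639488_at, had signals of 42.9, 28.4 and 37.7 in NASH and 34.4, 34.0 and 22.4 in Control. Its groups overlapped, with a difference of 0.25 ± 0.26 (adjusted p = 0.820). With 1 array left out, this difference ran from 0.06 without Control 3 to 0.41 without NASH 2, and that of AA108308_s_at from 0.10 without NASH 3 to 0.30 without NASH 1. The other 2 Mdm2 probe sets were below the filter. AA875509_at had signals of 8.43 to 9.96 in NASH and 2.29 to 14.9 in Control, so that the whole NASH range fell inside the Control range, and AA108308_i_at stayed between 0.39 and 0.741 on all arrays.

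Ccng1, cyclin G1, a strongly p53-induced gene that feeds back on Mdm2, had the highest positive difference among the tested members. Its only probe set, X70871_at, had normalized signals of 50.3, 35.9 and 18.9 in NASH and 25.6, 14.2 and 16.4 in Control. NASH 1 and NASH 2 lay above every Control array, while NASH 3 lay below Control 1. The log2 means were 5.12 ± 0.67 in NASH and 4.35 ± 0.40 in Control (SD, n = 3 each). The difference of 0.78 ± 0.38 (standard error) amounts to 1.71-fold, with a confidence interval from −0.10 to 1.65, and did not pass (limma adjusted p = 0.619). It was positive for every array left out in turn, from 0.48 without NASH 1 to 1.14 without NASH 3, and was 0.42 with array weights. Split by wash record, it was 0.98 over the 4 filled arrays and 0.37 for the blank pair, NASH 3 and Control 2.

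Ccng1 was also the only member whose brightest tested probe set varied by an SD over 0.5 on the log2 scale across the 6 arrays (0.65). Of 3133 other named genes, the 3 whose centred log2 values lay closest to it over the 6 arrays were the synaptic scaffold gene Homer2, the cAMP phosphodiesterase gene Pde4a, and Bdh1, the mitochondrial enzyme of ketone body formation. Their root mean square distances to Ccng1 were 0.23, 0.28 and 0.28 on the log2 scale. The differences of these genes between the diets were 0.77 for Homer2, 0.57 for Pde4a and 0.39 for Bdh1, none past the threshold (limma adjusted p = 0.508, 0.619 and 0.813). With 6 arrays and 3133 genes, close matches are easy to find, and the distances are a description.

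Cdkn1a, which encodes the kinase inhibitor p21, was read by 2 probe sets. L41275cds_s_at had normalized signals of 44.0, 48.1 and 48.3 in NASH and 39.7, 35.3 and 23.7 in Control. All NASH arrays lay above all Control arrays, the only tested member for which the groups did not overlap, where 14.3% of all tested probe sets did not overlap in either direction and 6.54% lay wholly higher in NASH. The NASH arrays were tightly grouped, with an SD of 0.07 against 0.36 in Control on the log2 scale. The difference was 0.51 ± 0.23, or 1.42-fold, with a confidence interval of −0.03 to 1.05 and a limma adjusted p of 0.619. In the deposited signals, before normalization, the groups overlapped (46.0, 49.7 and 35.3 in NASH, 45.6, 37.8 and 21.6 in Control).

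The second Cdkn1a probe set, U24174_at, had signals of 14.9, 12.2 and 14.4 in NASH and 13.8, 25.7 and 11.1 in Control. Control 2 stood above the other 5 arrays, and these lay between 11.1 and 14.9. The difference was −0.18 ± 0.35 (limma adjusted p = 0.916), and 0.13 without Control 2. For L41275cds_s_at the difference without Control 2 was 0.57, and it was 0.31 without Control 3, the array with the lowest signal. Within wash records L41275cds_s_at differed by 0.55 among the filled and 0.43 between the blank arrays, and U24174_at by 0.11 and −0.75. The sign of the U24174_at difference thus turned with Control 2, and the difference between the 2 probe sets was not tested.

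**Figure D2:**
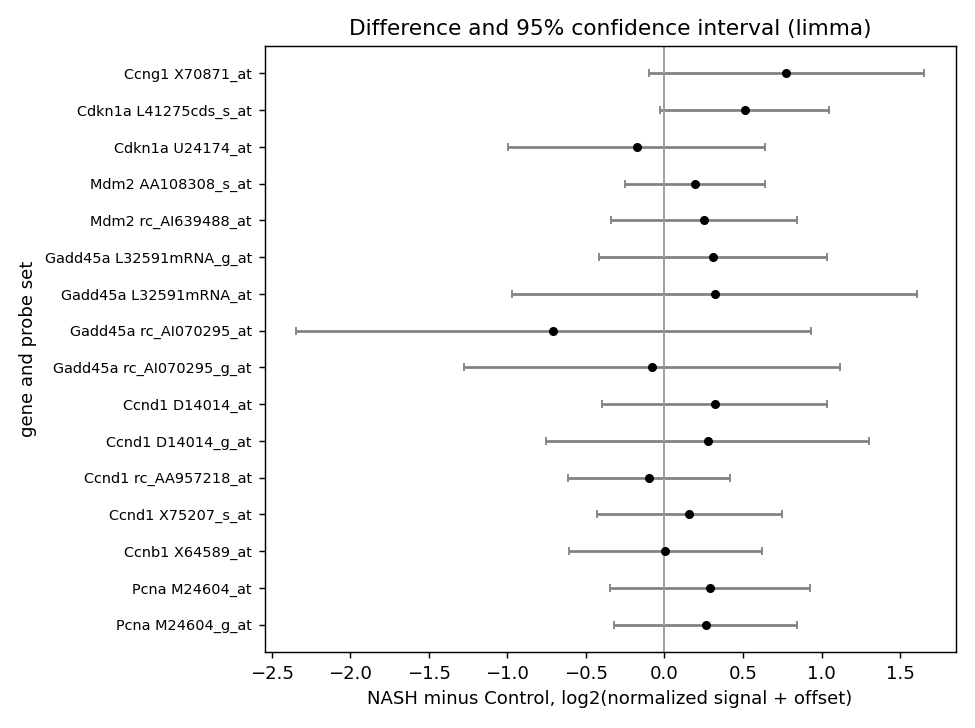
Difference between NASH and Control for the 16 tested member probe sets, as points with 95% confidence intervals from limma (x axis in log2 units, positive where NASH was higher). Every interval includes 0, the widest for the Gadd45a probe set rc_AI070295_at, from −2.34 to 0.93, and the lower ends for Cdkn1a L41275cds_s_at and Ccng1 come nearest to 0.

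Gadd45a, a growth arrest gene that also answers to stresses other than DNA damage, varied more between arrays of one diet than between diets. L32591mRNA_g_at, its brightest probe set, had normalized signals of 109, 61.5 and 112 in NASH and 103, 57.4 and 65.8 in Control. L32591mRNA_at had 106, 36.6 and 107 in NASH and 109, 27.6 and 69.1 in Control. In both, NASH 2 and Control 2 were the lowest arrays of their groups. The same held for the other 2 probe sets, rc_AI070295_at with 44.4, 6.64 and 41.8 in NASH and 64.5, 17.8 and 57.1 in Control, and rc_AI070295_g_at with 47.8, 10.2 and 42.7 in NASH and 39.9, 23.5 and 28.3 in Control. Over all tested probe sets, NASH 2 was the lowest NASH array for 40.2% and Control 2 the lowest Control array for 36.0%.

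The differences between diets for Gadd45a had both signs. They were 0.31 ± 0.31 and 0.32 ± 0.56 for the 2 L32591mRNA probe sets and −0.71 ± 0.71 and −0.08 ± 0.52 for the 2 rc_AI070295 probe sets, in the order given above, with limma adjusted p-values from 0.817 to 0.979. The log2 SD within NASH reached 1.36 for rc_AI070295_at and was 0.96 there in Control. Without both NASH 2 and Control 2 the differences were 0.42, 0.29, −0.47 and 0.40, again without a call. The 4 arrays with a filled wash record, which include NASH 2, gave −0.01, −0.46, −1.63 and −0.52, while the blank pair, which includes Control 2, gave 0.94, 1.88, 1.14 and 0.81. All 4 were thus below 0 among filled records, 1 of them barely, and above 0 for the blank pair. High fat and muscle transcripts were seen in NASH 2 and not in Control 2. Values of Dbp, Bmal1, Nr1d1, Nr1d2 and Tef stood apart in Control 2 only. The part of either in the low Gadd45a values was not tested.

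**Figure D3:**
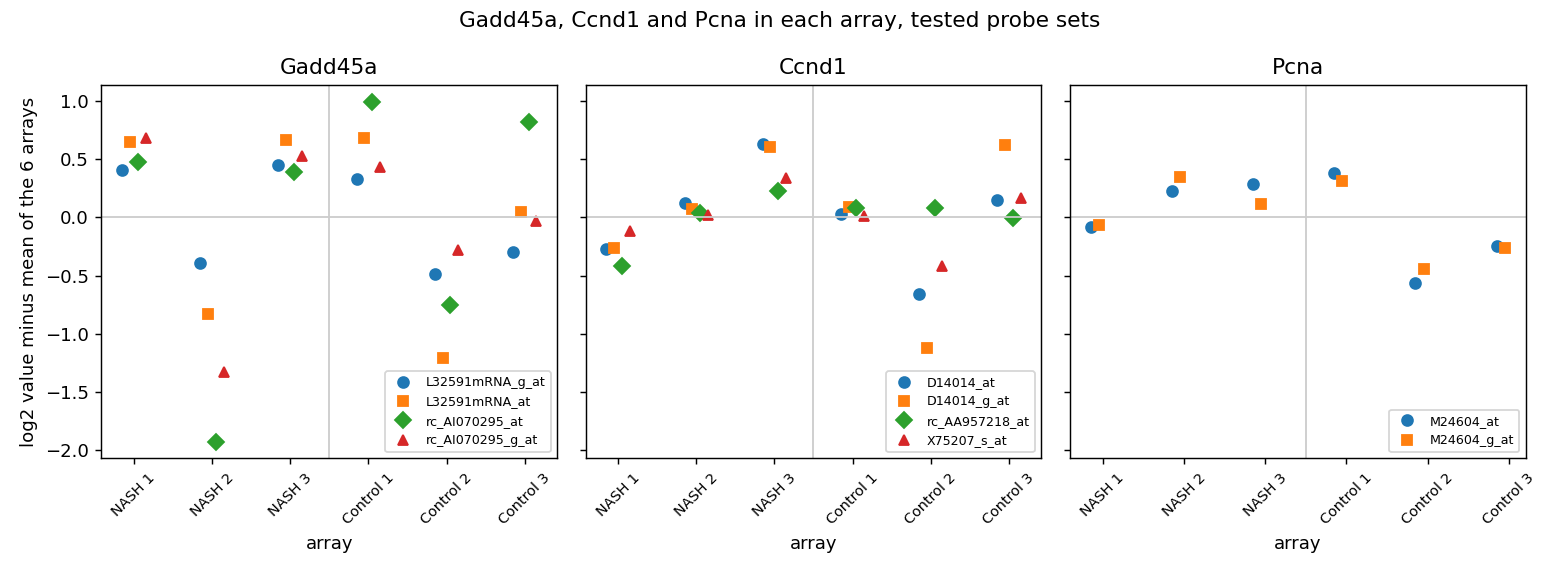
Values of the tested Gadd45a, Ccnd1 and Pcna probe sets on each array, as log2 minus the probe set's mean over the 6 arrays (each symbol is 1 probe set, NASH left of Control). All 4 Gadd45a probe sets are below their mean in NASH 2 and Control 2, and 3 of the 4 Ccnd1 and both Pcna probe sets are lowest in Control 2.

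Ccnd1, cyclin D1, which carries hepatocytes through G1, did not differ past the threshold by any of its 4 tested probe sets. D14014_at had normalized signals of 50.1, 66.6 and 95.2 in NASH and 62.2, 37.8 and 67.9 in Control. NASH 3 was the highest array and Control 2 the lowest, with the other 4 mixed between 50.1 and 67.9. The difference was 0.32 ± 0.31, with a confidence interval of −0.40 to 1.03 (limma adjusted p = 0.813), and was 0.07 without Control 2, 0.09 without NASH 3 and 0.53 without NASH 1. D14014_g_at, named for the same sequence record, had 41.1, 52.4 and 76.5 in NASH and 52.99, 21.6 and 77.8 in Control, a difference of 0.27 ± 0.44 that was −0.22 without Control 2.

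The other Ccnd1 probe sets had narrower ranges. X75207_s_at ran from 23.1 to 32.4 in NASH and from 18.3 to 28.5 in Control (difference 0.16 ± 0.26), with Control 2 again the lowest. In rc_AA957218_at the 3 Control arrays were close together at 39.4 to 41.9 and the NASH arrays ran from 29.2 to 46.8 around them, a difference of −0.10 ± 0.22 and an interval of −0.61 to 0.42. Control 2 was not low there. The dim rc_AI231257_at, below the filter, had 10.7 to 12.6 in NASH and 6.04 to 15.1 in Control, with Control 2 the highest array. Within wash records the 4 tested sets, in the order given, differed by −0.16, −0.45, −0.14 and −0.22 among filled arrays and by 1.28, 1.72, 0.75 and 0.15 between the blank ones, so that here too the direction turned.

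Pcna, the replication clamp, was read by 2 probe sets named for 1 sequence record. M24604_at had normalized signals of 105, 131 and 137 in NASH and 146, 74.9 and 93.4 in Control. Control 1 was the highest array and the other Control arrays the lowest, so that the NASH values fell inside the Control range. The difference was 0.29 ± 0.28 with an interval of −0.35 to 0.93 (limma adjusted p = 0.809). M24604_g_at had 61.3, 82.5 and 70.1 in NASH and 80.5, 46.9 and 53.2 in Control. Its difference was 0.26 ± 0.25. Both rested on Control 2 in part: without it they were 0.08 and 0.11, and without Control 1, 0.55 and 0.48. With array weights, in which Control 2 and Control 3 counted least, they were 0.033 and 0.0025. Among filled arrays they were 0.01 and 0.11, and between the blank ones 0.85 and 0.56.

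Ccnb1, the mitotic cyclin, had log2 means of 4.55 in NASH and 4.54 in Control by its tested probe set. X64589_at had normalized signals of 25.1, 15.9 and 23.5 in NASH and 22.8, 22.8 and 18.0 in Control, a difference of 0.00 ± 0.27 with an interval of −0.61 to 0.62 (limma adjusted p = 0.998). The Control range lay inside the NASH range. The second, rc_AA998164_s_at, was below the filter, at the 10.1 percentile of mean level among all probe sets. Its signals were 8.51, 5.17 and 2.68 in NASH and 1.81, 1.23 and 0.682 in Control, and the groups did not overlap, as for 13% of all 8740 probe sets, of which 5.56% lay wholly higher in NASH. With no filter on dim probe sets the difference was 1.09, or 2.13-fold on a scale whose offset is larger than the Control signals, with a limma adjusted p of 0.545. In the deposited signals the groups overlapped, since NASH 3 had 1.93 and Control 2 had 2.08.

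**Figure D4:**
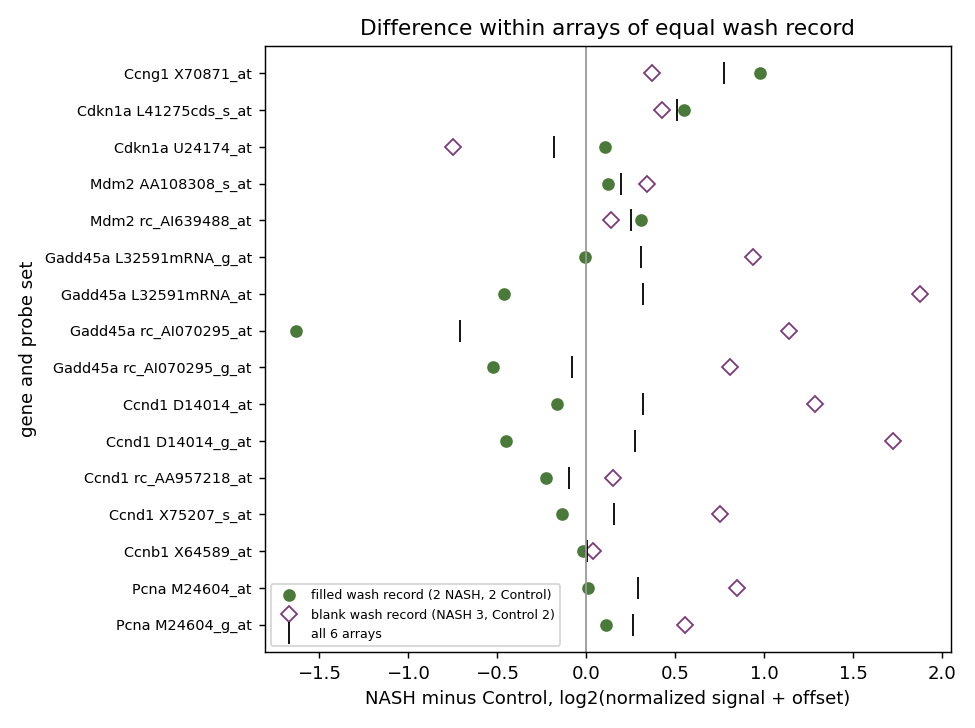
Difference between NASH and Control (log2 units) for the 16 tested member probe sets, over the 4 filled wash records (green circles), between NASH 3 and Control 2 with a blank one (open diamonds) and over all 6 arrays (black bars). Gadd45a and Ccnd1 lie mostly left of 0 among filled arrays and right of it between blank ones. Cdkn1a L41275cds_s_at, Ccng1, Mdm2 and both Pcna probe sets lie right of 0 in both, Pcna M24604_at barely so among filled arrays (0.01).

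Over the 16 tested probe sets, Control 2 was the lowest Control array for 10. Without Control 2 the median member difference was 0.08 and 10 of the 16 were positive. Among the filled arrays, which leave out Control 2 and NASH 3, the median was −0.01 and 7 of 16 were positive, where 46.4% of all tested probe sets were. Without NASH 3 the median was also 0.08, and it was between 0.22 and 0.37 with any of the other 4 arrays left out. Without both Control 2 and NASH 2 it was 0.21, with 12 of the 16 positive. The members' median of 0.26 thus changed with the arrays that were kept.

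Other genes of the same pathways were read from 5 lists. By limma over all probe sets, 0 of the 36 genes tested were called. Of these, 1 had an unadjusted p under 0.05, where 7.86% of all tested probe sets did. Of 35 further p53 network genes, 7 were on the array and 3 tested, all 3 negative with a median of −0.15. These were Igfbp3, the growth factor binding protein (−0.64 ± 0.32, adjusted p = 0.619), Atf3, a stress transcription factor (−0.15), and Btg1, an antiproliferative gene (−0.02). Of 12 BCL2 family genes, the relatives of Bax that promote or restrain cell death, 9 were tested, 2 positive and 7 negative, with a median of −0.14. The cell death promoter Bad differed by −0.55 ± 0.21 (limma adjusted p = 0.582), with log2 values of 5.95 to 5.96 in NASH and 6.21 to 6.78 in Control. The mitophagy receptor Bnip3l differed by −0.35 and the death inhibitor Bcl2 by −0.28. The groups did not overlap for 2 of the 9, Bad and Bnip3l, where 14.3% of all tested probe sets did not overlap in either direction.

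Cell cycle lists were centred near 0. The 8 tested G1 regulators, of 21 listed, had a median difference of −0.06, with 2 positive and 6 negative. Among them the transcription factor Myc differed by −0.23, the cyclin D partner kinase Cdk4 by 0.16 and cyclin D2 (Ccnd2) by 0.17. The 11 tested DNA replication genes, of 30 listed, had a median of −0.02, with 4 positive and 7 negative. The flap endonuclease Fen1 differed by −0.45 ± 0.22 and the primase subunit Prim1 by 0.98 ± 0.48 (limma adjusted p = 0.619 for both), and the uracil glycosylase Ung by 0.35. Of the 11, only Fen1 had groups that did not overlap, where 14.3% of all tested probe sets did not. For Prim1, NASH log2 values were 4.64 to 5.08 and Control values 2.84 to 4.81, lowest in Control 2. The 5 tested genes of G2 and mitosis, of 24 listed, had a median of −0.08, with the tubulin regulator Stmn1 at −0.23, the phosphatase Cdc25b at −0.29 and the mitotic kinase Plk1 at −0.08, and 6 more were below the filter. Summed normalized signals of the 11 measured G2 and mitosis genes were 149 to 210 in NASH and 174 to 225 in Control.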

How the data were processed

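Liver RNA of 3 NASH and 3 Control samples was hybridized to Affymetrix Rat Genome U34 arrays (chip A), 1 per sample. Tissue and chip type are stated per the file headers. The deposited values are linear signal intensities made with MAS5, per the submitters' processing notes, without a scaling target in the sources used here. Detection calls played no part. From the instrument files only the wash record, filled or blank, was used.

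The signals were quantile normalized over 8799 probe sets, since the deposited table had no common scale. An offset of 2.21 (the 10th percentile of the deposited values) was added before log2, so fold changes understate the change of dim probe sets. After 59 array controls were left out, the 5244 probe sets with a mean log2 above the 40th percentile (3.94) were tested with limma 3.58.1 in R 4.3.3 (lmFit, eBayes with an intensity trend, 4 residual degrees of freedom), with Benjamini-Hochberg adjustment over all of them and a threshold of 0.05. The fit was also run on simulated data with known shifts. The simulation drew independent errors for each value, without arrays that stand apart as a whole, and its outcome is not used here. The number of arrays limits the precision.

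Titles gave the groups, since every description field repeats that of 1 Control sample. Symbols came from the platform's annotation, and all 7 measured members had the same symbol in the reference gene table. All probe sets of the members are described; of each list up to 3 tested genes with the smallest p are named by their brightest probe set, and likeness was measured as stated. Bad, Bmal1 and Dbp values by array, and the summed marker levels, are given beside the results. Dbp, which was below the filter, Nr1d1, Nr1d2, Tef, Myh1, Myh4 and the lymphocyte markers are named outside this rule. The members and lists were chosen with earlier results of these data known. Other settings tried were the scaling, the offset, the filter, the trend, weights per array, blocks for the replicate number and the wash record, and arrays left out.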

Additional observations from a re-analysis of the deposited data

How the results depend on the processing

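No member probe set was called in the 18 alternative settings (lowest limma adjusted p 0.510, with 0 to 2 members at an unadjusted p under 0.05). Of 282 member differences under these settings 257 kept their sign and 25, from 11 probe sets, turned it. Settings that changed only the filter, the intensity trend or the blocks left each difference the same by construction. No sign could turn in these, so the count of signs kept is inflated by them. The count over all probe sets, 7 (5 higher, 2 lower), was 14 with no scaling between arrays (8 higher, 6 lower), 3 without the intensity trend, 18 with array weights, 3 with the wash record as a block, 2 with filled records only, 15 without both Control 2 and NASH 2, and from 0 to 17 with 1 array left out. It was 0 by limma with no filter (633 of 8740 at an unadjusted p under 0.05) and without Control 1 (513), Control 3 (417) or NASH 3 (265). With the replicate block it was 1. The numbers may not pair the arrays: deviations of same-numbered arrays correlated at 0.05, −0.02 and 0.07. The cause of these changes was not tested. With no scaling, the median of all probe sets was −0.17, against −0.02 after normalization, the members' median was 0.07, and Ccnb1 X64589_at was −0.10. Filled records only turned Cdkn1a U24174_at to 0.11, Gadd45a L32591mRNA_g_at to −0.0053 and L32591mRNA_at to −0.46, Ccnd1 D14014_at to −0.16, D14014_g_at to −0.45 and X75207_s_at to −0.14, and Ccnb1 X64589_at to −0.015. Without both Control 2 and NASH 2, Cdkn1a U24174_at was 0.21, Gadd45a rc_AI070295_g_at 0.40, Ccnd1 D14014_g_at −0.19 and Pcna M24604_g_at −3.96e-05. Gadd45a rc_AI070295_g_at was 0.0033 with an offset of 16 and 0.0081 with array weights. With 1 array left out, ranges that crossed 0 were −0.40 to 0.13 for Cdkn1a U24174_at, −0.21 to 0.81 for Gadd45a L32591mRNA_at, −1.26 to 0.078 for rc_AI070295_at and −0.44 to 0.56 for rc_AI070295_g_at, −0.22 to 0.66 for Ccnd1 D14014_g_at, −0.24 to 0.084 for rc_AA957218_at and −0.0092 to 0.28 for X75207_s_at, and −0.11 to 0.19 for Ccnb1 X64589_at. Taking all probe sets of a gene moved the other p53 network genes from 0 positive of 3 genes to 1 positive of 5 probe sets and gave no call in any list. Dim probe sets, the offset and 3 arrays a group limit what could be seen.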
